A study of Mus musculus with 12 samples.

Results

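LSK cells are the lineage-negative, Sca1-positive, Kit-positive fraction of mouse bone marrow, in which the blood stem cells and the multipotent progenitors are found. Their response to loss of β-catenin was read from 4 RNA-seq libraries, 2 labelled Bcat_KO and 2 labelled WT, of the 12 LSK libraries of the study. The genes described are the autosomal ones: 16503 of the 51155 autosomal genes in the deposited table held enough counts to be tested. Genes of X and Y (535 tested) and of the mitochondrion and unplaced scaffolds (25 tested) were left out of every count, for the reason given with the library totals. The cells of all 12 libraries were sorted from mice after a primary transplant, at 6 weeks from tamoxifen, a drug commonly used to switch on an inducible recombinase, and the WT labels name no deletion. Bcat_KO is a sample title, whereas its genotype field reads beta-catenin knockdown. The labels name neither the promoter of a recombinase nor the exons removed. The other groups, of 2 libraries each, are HOXA9_KO, dKO (beta-catenin and Hoxa9 together), PRMT1_KO and WT_PRMT1, a second wild type for the Prmt1 experiment. By the title of the series, its question is what β-catenin and Hoxa9 do for replication of DNA, for an intact genome and for stem cell function. Since no label says that the replicates were separate animals, the p-values measure the spread between these samples, which may be technical.

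β-Catenin, encoded by Ctnnb1, does 2 jobs. At the membrane it links cadherins to the actin cytoskeleton. In the cytoplasm it is held low by a destruction complex of Axin, Apc, Gsk3b and casein kinases, and when a Wnt ligand stops that complex it enters the nucleus and activates genes together with TCF and LEF factors. In blood, Wnt signalling has been tied to stem cell self-renewal, to lymphoid development and to leukaemia stem cells. Plakoglobin, encoded by Jup, is its closest relative.

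The 2 Bcat_KO libraries stand apart from the other 10 in their background. Summed over 1478 autosomal olfactory, vomeronasal and taste receptor genes, which blood cells are not known to use, they held 14.8 and 11.3 CPM (counts scaled to the same total in every library), against 162 and 122 in WT and 56.8 to 131 in the other 8 libraries. In Bcat_KO, 23 and 47 receptor genes had a count, and 734 and 625 in WT. The Bcat_KO libraries were also the deepest, at 29943990 and 40553891 counts, with 18893203 and 21234828 in WT and 17569709 to 26755289 elsewhere. Xist was at 11.2 and 21.9 CPM in Bcat_KO and at 182 and 163 in WT, and Ddx3y, a Y gene, at 62.3 and 60.6 against 1.88 and 2.87, so the sex of the cells and the genotype cannot be told apart. The HOXA9_KO and dKO libraries had at most 0.619 CPM of Xist and 61.4 to 69.8 of Ddx3y, so that pair does not have this split. In a principal component analysis the third component, 19.4% of the variance, put Bcat_KO at 46.4 and 47.0 and the other 10 libraries between -20.5 and 3.80. Kit and Ly6a (Sca1), the antigens of the sort, were at 424 and 430 and at 73.7 and 74.3 CPM in Bcat_KO. The 8 lineage antigens measured summed to 28.6 and 26.2 CPM there and to 259 and 300 in WT, of which B lineage genes such as Cd79a made most. These sums were 72.8 and 157 CPM in HOXA9_KO, 86.0 and 38.4 in dKO and 65.1 and 63.2 in PRMT1_KO. WT_PRMT1 had 364 and 371, so the 2 wild-type groups were the highest.

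**Figure D1:**
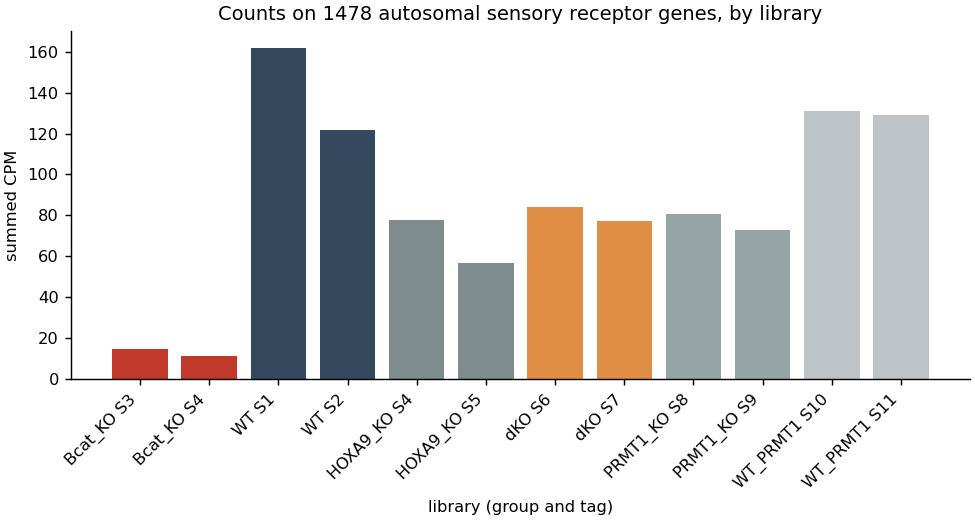
Summed CPM of 1478 autosomal sensory receptor genes (y axis) in each of the 12 libraries (x axis), 1 bar a library. The 2 Bcat_KO bars, at 14.8 and 11.3, are below the other 10, which lie between 56.8 and 162.

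Ctnnb1 itself (chr9:120929216-120960507, GRCm38, plus strand) was lower in the group labelled for its loss, though far from absent. It stood at 276 and 267 CPM in Bcat_KO and at 315 and 342 in WT, so the groups did not overlap. The log2 change was -0.28 (SE 0.07, adjusted p = 0.0170), and the call was lost without Bcat_KO S3, Bcat_KO S4 or WT S2, with adjusted p reaching 0.185. Counts over a whole gene do not check a deletion of a few of its exons, since a shortened transcript is still counted. In the pair on the Hoxa9-deficient background, Ctnnb1 was at 227 and 235 CPM in dKO and at 363 and 349 in HOXA9_KO, a log2 change of -0.63 (adjusted p = 0.000379). Its reduction was the larger of both there, by 0.35 on the log2 scale (adjusted p of the difference = 0.0462). Jup was lower too, at 10.9 and 11.5 CPM against 24.8 and 21.4 in WT (log2 change -1.04, SE 0.16, adjusted p = 0.000323), whereas dKO against HOXA9_KO gave -0.10 (adjusted p = 0.897). Hoxa9, the stem cell homeobox factor, was at 49.2 and 61.9 CPM in Bcat_KO and at 58.7 and 59.9 in WT (log2 change -0.09, adjusted p = 0.728). Prmt1, an arginine methyltransferase, was at 310 and 301 against 322 and 334 (log2 change -0.10, adjusted p = 0.347).

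Across the autosomes, 1245 genes were called higher in Bcat_KO (7.54% of those tested) and 1592 lower (9.65%), at an adjusted p under 0.05, which makes 17.2% in either direction. Of these, 304 higher genes (1.84%) and 474 lower genes (2.87%) were called the same way without each of the 4 libraries in turn. The count in either direction was 1589 without Bcat_KO S4, 1287 without WT S1 and 1269 without WT S2, and 461 when a change had to exceed 1.5-fold. Both Bcat_KO libraries lay above both WT libraries for 27% of the genes tested and below them for 32.3%. The median log2 change over all autosomal genes was -0.04. Low genes leaned downward: under a mean of 1 CPM, 21 were called higher and 401 lower of 4176, whereas from 5 CPM up the split was 1104 higher and 1011 lower of 9804. Among those 9804 genes, 927 had both Bcat_KO libraries above all the other 10 and 893 below, which is 18.6%. For the same count the WT pair had 5.71%, HOXA9_KO 1.82%, dKO 11.8%, WT_PRMT1 18.2% and PRMT1_KO 36.3%, so Bcat_KO was not the pair furthest from the others. At any level, 601 genes called higher lay above all the other 10 libraries and 815 called lower lay below them, together 49.9% of the 2837 calls.

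Within the Wnt pathway, calls were of both signs. Of 20 genes of the destruction complex, with β-catenin and plakoglobin, 6 were called higher and 2 lower (Ctnnb1 and Jup), with a median of 0.08, and 2 were higher without WT S2. Gsk3b, the kinase that marks β-catenin for degradation, was at 63.3 and 69.1 CPM in Bcat_KO and at 40.3 and 32.9 in WT (log2 change 0.86, SE 0.14, adjusted p = 0.000584). Both Bcat_KO values exceeded all the other libraries, where Gsk3b reached 47.9 at most. Csnk1e, a casein kinase of the same pathway, was at 111 and 121 CPM against 69.3 and 70.1, a 1.66-fold difference (log2 change 0.73, SE 0.10, adjusted p = 0.000164). Tnks, the tankyrase that triggers Axin breakdown, changed by 0.62 (adjusted p = 0.00650, lost without WT S2). In dKO against HOXA9_KO these 3 genes gave 0.02, -0.17 and -0.14, and the difference was called for each. At the receptor level 2 of 23 genes were called higher and 1 lower, where 7.54% and 9.65% of all autosomal genes were. The coreceptor Lrp5 was at 144 and 134 CPM against 95.2 and 96.0 (log2 change 0.54, adjusted p = 0.00273). Frizzled 1, Fzd1, was low in all 4 libraries, at 0.826 and 1.51 against 3.14 and 4.16 CPM (log2 change -1.63, adjusted p = 0.0195, lost without Bcat_KO S3 or WT S2).

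Of 20 TCF/LEF factors, corepressors and nuclear partners of β-catenin, 1 was called higher and 3 lower, a share near the 17.2% of all autosomal genes, and none of these calls held without each of the 4 libraries. Lef1, a lymphoid LEF factor, was at 0.191 and 0.566 CPM in Bcat_KO and at 10.9 and 12.1 in WT (log2 change -4.87, SE 0.91, adjusted p = 0.00872). That call was lost without Bcat_KO S3, Bcat_KO S4 or WT S2, and Lef1 ranged from 0 to 13.2 CPM over the other 8 libraries. Tcf7, which encodes Tcf1, was at 6.99 and 5.70 against 19.0 and 23.9 CPM (log2 change -1.76, adjusted p = 0.0372), a call lost when any 1 of the 4 libraries was left out. Tcf7l1 gave -0.99 (adjusted p = 0.0393, lost without Bcat_KO S3 or WT S2), and the coactivator Crebbp gave 1.07 (adjusted p = 0.00764, lost without Bcat_KO S4).

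Among 26 widely used Wnt target genes, 3 were called higher and 8 lower, and the median was -0.35. Over all autosomal genes 7.54% were called higher and 9.65% lower. With genes of at least 5 CPM alone the list had 3 higher, 4 lower and a median of 0.06. Axin2, the target most often used as a readout of the pathway, was close to nil everywhere: 0.0635 and 0 CPM in Bcat_KO, 0.314 and 0.139 in WT (adjusted p = 0.213). Myc was at 168 and 154 CPM against 164 and 162 (log2 change -0.01, SE 0.11, adjusted p = 0.951). Both targets were chosen for naming after their values were seen. Lower calls that held without each library were Dusp6, Id2 and Nkd2. Dusp6, a phosphatase of the ERK kinases, fell from 285 and 276 CPM in WT to 170 and 159 (log2 change -0.77, SE 0.10, adjusted p = 8.4e-05). Id2, an inhibitor of helix-loop-helix factors, was at 13 and 13.2 against 35.6 and 29.0 (log2 change -1.30, SE 0.20, adjusted p = 0.00113), the lowest of all 12 libraries. It moved the other way in dKO against HOXA9_KO, where it rose by 0.93 (adjusted p = 0.0362). The Wnt inhibitor Nkd2 had no count in Bcat_KO and 1.52 and 2.96 CPM in WT. Set against 3 counts over the group as the floor, it was at least 55.2-fold lower. Tnfrsf19 was at 0.191 and 0.0471 against 3.66 and 6.76 CPM (log2 change -5.48, adjusted p = 0.00651, lost without Bcat_KO S4). Cd44 (log2 change 0.45), the D cyclin Ccnd1 (0.53) and Sox4 (0.54), a factor of early lymphoid cells, were the 3 higher ones, and each call was lost without WT S2 and at least 1 other library. Sox4, which shares sequence with another gene model, fell by 0.57 in dKO against HOXA9_KO (adjusted p = 0.0248). Of 13 cadherin-linked adhesion genes 2 were higher and 3 lower, to be set beside the same 7.54% and 9.65%. α-Catenin, Ctnna1, the link from β-catenin to actin, was at 99.3 and 104 CPM against 145 and 157 (log2 change -0.57, SE 0.08, adjusted p = 0.000179), below all 10 other libraries. E-cadherin, Cdh1, was at 0 and 0.0471 against 0.889 and 0.740 CPM (adjusted p = 0.000678), near the floor of detection in both groups.

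The stretches of 250 bases before the start site held few of the letters that TCF and LEF factors read. ATCAAAG, searched on both strands, stood in 2.19% of the 11347 promoters that could be matched to RefSeq (GRCm38.p6), in 1.88% of those of genes called higher and in 2.34% of those called lower. It stood in 0 of the 17 promoters of Wnt target genes that were matched. The related form TTCAAAG stood in 3.41%, 2.10% and 3.60% of the same 3 sets, and in 1 of the 17. These are matches of letters in a short window, not sites of binding.

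Type I interferon response genes were lower as a group in Bcat_KO. These genes are switched on when interferon receptors activate a transcription factor complex that binds an interferon-stimulated response element in the promoter. Of 48 members tested, 21 were called lower and 0 higher and 12 of the lower calls held without each of the 4 libraries. The median was -0.53, beside -0.04 over all autosomal genes, where 9.65% were called lower, and in 40 members both Bcat_KO libraries lay below both WT libraries. Leaving out 1 library left 13 to 20 lower calls and 0 higher, with the fewest without WT S1. With a correction for transcript length the count was 20 lower and 1 higher, and against WT_PRMT1 in place of WT it was 29 lower and 2 higher. The summed level of the list was 2241 and 2126 CPM in Bcat_KO, 3230 and 3095 in WT, and 3105 to 4042 in the other 8 libraries, so the Bcat_KO pair was the lowest of the 6 groups. The element's core, GAAANNGAA on either strand, stood in 51.4% of the 35 matched promoters of the list and in 9 of the 15 of its called members, beside 6.42% of all promoters. It stood in 8.70% of the promoters of all genes called lower and in 5.20% of those called higher. The windows around the matches are printed for 5 of the called genes whose promoters carry it, to show how near the start site the copies lie and that they overlap. They are 5′ to 3′ on the gene's strand, with the matches in capitals, which show either the core or its reverse complement (RefSeq, GRCm38.p6).
Isg15, chr4:156200846-156200926, minus strand: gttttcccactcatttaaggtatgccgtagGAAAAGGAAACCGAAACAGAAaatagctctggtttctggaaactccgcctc
Ifit1, chr19:34640750-34640843, plus strand: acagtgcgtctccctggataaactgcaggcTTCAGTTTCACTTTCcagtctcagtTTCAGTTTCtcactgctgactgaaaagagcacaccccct
Irgm1, chr11:48871421-48871480, minus strand: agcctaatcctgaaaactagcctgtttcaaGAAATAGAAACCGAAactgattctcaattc
Bst2, chr8:71537558-71537632, minus strand: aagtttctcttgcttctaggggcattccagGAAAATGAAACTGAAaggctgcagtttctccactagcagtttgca
Rsad2, chr12:26456533-26456601, minus strand: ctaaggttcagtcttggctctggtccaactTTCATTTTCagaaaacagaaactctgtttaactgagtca
Isg15 and Ifit1 carry 3 overlapping or neighbouring copies, Irgm1 and Bst2 carry 2, and Rsad2 carries 1. Between the end of the last copy and the start site lie 57 bases in Isg15, 75 in Ifit1, 15 in Irgm1, 115 in Bst2 and 110 in Rsad2.

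Isg15, a ubiquitin-like protein and a standard readout of interferon, was at 8.64 and 5.51 CPM in Bcat_KO and at 32.1 and 22.5 in WT (log2 change -1.95, SE 0.24, adjusted p = 7.51e-05). Both Bcat_KO libraries were below all 10 others, of which the lowest had 10.9 CPM, though a gene model of similar sequence could share its reads. Ifit1, which binds viral RNA, was at 4.76 and 1.56 against 43.8 and 38.8 CPM (log2 change -3.72, SE 0.53, adjusted p = 0.00342). Here WT and HOXA9_KO, at 41.7 and 25, were the high groups, and the WT_PRMT1 pair, at 3.96 and 3.78, lay between the 2 Bcat_KO libraries. Rtp4, a chaperone of receptors, was at 8.58 and 8.15 against 26.9 and 21.7 CPM (log2 change -1.54, adjusted p = 5.81e-05). Rsad2, which makes an antiviral nucleotide, was at 15.9 and 16.1 against 49.5 and 27.3 CPM (log2 change -1.26, adjusted p = 0.00324). The abundant members moved less. Ly6e stood at 902 and 863 CPM against 1426 and 1395 (log2 change -0.68, SE 0.08, adjusted p = 6.7e-05), and Ifi27 at 91.9 and 76.5 against 138 and 141 (log2 change -0.73, adjusted p = 9.32e-05). Gbp2 (log2 change -0.64), Irgm1 (-0.67, lost without WT S1) and Bst2 (-0.52, lost without Bcat_KO S4 or WT S1) were lower as well, and Gbp2 gave 0.05 when WT_PRMT1 was the control. Ifitm3, a membrane barrier to viruses that stem cells express, was at 232 and 222 against 237 and 236 CPM (adjusted p = 0.756). Rsad2, Irgm1, Gbp2, Bst2 and Ifitm3 were chosen for naming after their values were seen. In dKO against HOXA9_KO no member of the list was called (0 higher, 0 lower, median 0.13), and for 15 of the 48 the difference between both comparisons was called.

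MHC class I and peptide-loading genes were lower by smaller steps. Of 23, 12 were called lower, beside 9.65% of all autosomal genes, and 0 higher, with a median of -0.27. Leaving out 1 library left 7 (without WT S1), 5 (Bcat_KO S4), 4 (Bcat_KO S3) or 2 (WT S2) of the lower calls, and the length correction left 5. B2m, the light chain of every class I molecule, was one that held: it stood at 1517 and 1414 CPM in Bcat_KO and at 2492 and 2641 in WT (log2 change -0.81, SE 0.07, adjusted p = 1.81e-06). All 10 other libraries lay above, from 2042 CPM up, and dKO against HOXA9_KO gave 0.14 (adjusted p = 0.436). H2-Q6, a class I heavy chain, was at 230 and 236 against 324 and 336 CPM (log2 change -0.50, adjusted p = 0.000164). Over 43.8% of its transcript it is 95.8% identical to H2-Q7, so its counts are uncertain. Against WT_PRMT1 its sign turned, to 0.30.

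**Figure D2:**
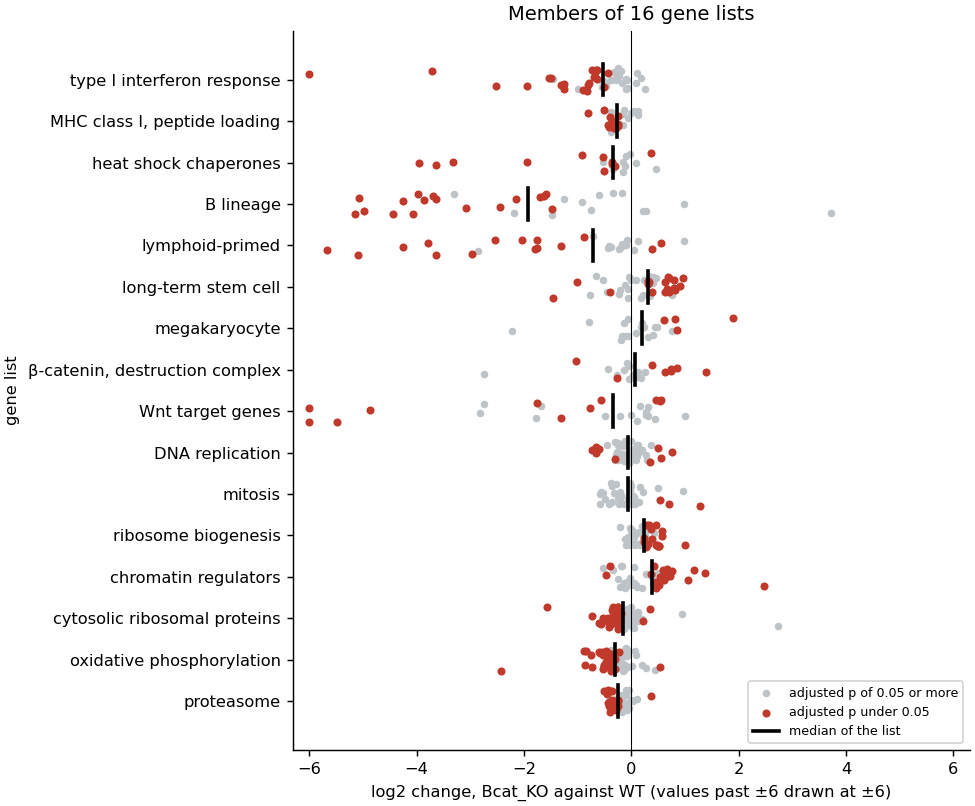
Log2 change in Bcat_KO against WT (x axis) of each tested member of 16 gene lists (y axis), with members of adjusted p under 0.05 in red and the list's median as a black bar. The interferon, MHC class I, heat shock, B lineage and oxidative phosphorylation lists lie mostly left of 0, and the stem cell, ribosome biogenesis and chromatin lists mostly right.

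Heat shock chaperones were lower in Bcat_KO, with 10 of 20 called lower and 1 higher (median -0.35), 7 of the lower calls holding without each library. Over all autosomal genes 9.65% were called lower and 7.54% higher. Hspa1a and Hspa1b, the inducible Hsp70 genes, are 99.2% identical over 74.2% and 78.5% of their transcripts, so their reads may be split. They were at 29.1 and 21.6 and at 92.9 and 76.9 CPM in Bcat_KO, and at 350 and 284 and at 927 and 773 in WT. The log2 changes were -3.65 (SE 0.22, adjusted p = 2.84e-05) and -3.32 (SE 0.24, adjusted p = 0.00019). The level of this pair varied across the whole series: Hspa1a had 61.9 and 65.1 CPM in the HOXA9_KO pair, 11 and 7.59 in the dKO pair and 3.68 and 5.08 in the PRMT1_KO pair. In WT_PRMT1 it had 257 and 253. The 2 wild-type groups were thus the highest. Hspa1a fell in dKO against HOXA9_KO as well, by 2.77 on the log2 scale (adjusted p = 0.00132). Hspb1, a small heat shock protein, was at 1.21 and 1.84 against 31.2 and 16.8 CPM (log2 change -3.97, adjusted p = 3.62e-06). Hspa8, the abundant constitutive Hsp70, was at 3230 and 3285 against 4527 and 4821 CPM (log2 change -0.52, SE 0.06, adjusted p = 1.21e-05). It was lower still in the HOXA9_KO and dKO libraries, at 2241 to 3050 CPM. Hspb1 and Hspa8 have pseudogene copies that could take some of their reads. Dnajb4, a cochaperone, was at 51.0 and 46.1 against 155 and 139 CPM (log2 change -1.60, SE 0.10, adjusted p = 2.62e-08). The higher one was Hspa4, an exchange factor (log2 change 0.37, adjusted p = 0.00615, lost without Bcat_KO S4 or WT S1).

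Immediate early genes, which respond within minutes to stress and to cell handling, were split, with 2 of 26 higher and 6 lower. Of all autosomal genes 7.54% were higher and 9.65% lower. Atf3, a stress transcription factor, was at 292 and 295 against 764 and 609 CPM (log2 change -1.23, SE 0.17, adjusted p = 0.00218), the lowest pair of the series. Btg2, an antiproliferative p53 target, was at 287 and 282 against 523 and 462 (log2 change -0.79, adjusted p = 0.000338). Nr4a2, an orphan nuclear receptor, went up, from 9.88 and 6.25 CPM in WT to 40.3 and 37.1 (log2 change 2.26, SE 0.31, adjusted p = 0.000619). Gem, a small GTPase, was at 108 in both Bcat_KO libraries and at 254 and 230 in WT (log2 change -1.16, adjusted p = 4.8e-07), though against WT_PRMT1 it gave 0.58. RNA quality was not measured in the files, and its part in these genes was not tested.

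Genes of long-term stem cells were higher more often than lower in Bcat_KO. Of 41, 15 were called higher, beside 7.54% of all autosomal genes, and 3 lower, beside 9.65%. The median of the list was 0.31. Leaving out any 1 of the 4 libraries left 8 or 9 higher calls and 2 to 4 lower. Among the calls of smallest p were transcription factors and receptors that keep stem cells. Kit, the stem cell factor receptor, was at 424 and 430 against 271 and 269 (log2 change 0.66, SE 0.10, adjusted p = 0.000427). Runx1 stood at 149 and 140 against 94.3 and 85.4 (log2 change 0.69, adjusted p = 0.000313), above all 10 other libraries. Meis1, a partner of Hox proteins, rose by 0.63 (adjusted p = 0.00103), and the laminin receptor Itga6 by 0.79 (adjusted p = 0.000616). Slamf1, which marks long-term cells as CD150, was at 15.3 and 16.1 against 8.32 and 7.87 CPM (log2 change 0.96, adjusted p = 0.0143), a call lost when any 1 library was left out. Kit was at 354 to 461 CPM in the HOXA9_KO and dKO libraries, so that the WT pair was the low one among the 4 groups of this experiment. Against WT_PRMT1, 26 of the list were higher and 4 lower.

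The 3 stem cell genes called lower were Ly6a, Cxcr4 and Txnip. Txnip, an inhibitor of thioredoxin that is high in quiescent stem cells, was at 146 and 163 CPM against 436 and 415 (log2 change -1.46, SE 0.09, adjusted p = 1.47e-08). All 10 other libraries, from 234 up, lay above Bcat_KO. Cxcr4, the receptor that anchors stem cells in the marrow, was at 63.0 and 74.7 against 154 and 125 (log2 change -1.02, SE 0.14, adjusted p = 0.000355), again below every other library. Ly6a changed by -0.41 (adjusted p = 0.0229, lost without Bcat_KO S3, Bcat_KO S4 or WT S2). Procr, the endothelial protein C receptor of stem cells, was at 39.8 and 41.5 against 46.9 and 48.8 (log2 change -0.23, adjusted p = 0.462), and Hlf, a stem cell factor, at 225 and 221 against 234 and 223 (-0.04, adjusted p = 0.902). Both were chosen for naming after their values were seen, and both turned positive against WT_PRMT1, at 0.64 and 0.93.

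Of 21 megakaryocyte genes 4 were called higher and 0 lower (median 0.19), and 1 higher call was left without WT S1. Of all autosomal genes 7.54% were called higher. Selp, P-selectin of platelets and stem cells, was at 123 and 112 CPM against 28.8 and 34.4 (log2 change 1.89, SE 0.14, adjusted p = 1.55e-06), a 3.71-fold difference. HOXA9_KO and dKO libraries lay between 125 and 185, however, so the WT pair was the low one. Itga2b, CD41, changed by 0.82 (adjusted p = 0.0405), a call lost when any 1 library was left out. Other higher genes outside these lists were named by the size of their change or by their p. Apoe, the lipid carrier, was at 486 and 523 against 197 and 183 CPM (log2 change 1.41, SE 0.09, adjusted p = 3.82e-08), with 381 to 471 in HOXA9_KO and dKO. Jag2, a Notch ligand, stood out over all groups: 52.2 and 45 CPM in Bcat_KO, 9.94 and 11.4 in WT, and 19.4 at most elsewhere (log2 change 2.18, SE 0.28, adjusted p = 0.00019). The TGF-β coreceptor Tgfbr3 was at 37.7 and 32.7 against 9.05 and 12.8 (log2 change 1.69, adjusted p = 0.0033), and Myct1 at 139 and 147 against 71.8 and 73.3 (log2 change 0.98, adjusted p = 2.93e-06). Csf3r, the G-CSF receptor, was at 172 and 174 against 105 and 101 (log2 change 0.75, adjusted p = 0.000234), and at most 107 in the other 8 libraries, though a gene model of similar sequence could share its reads.

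**Figure D3:**
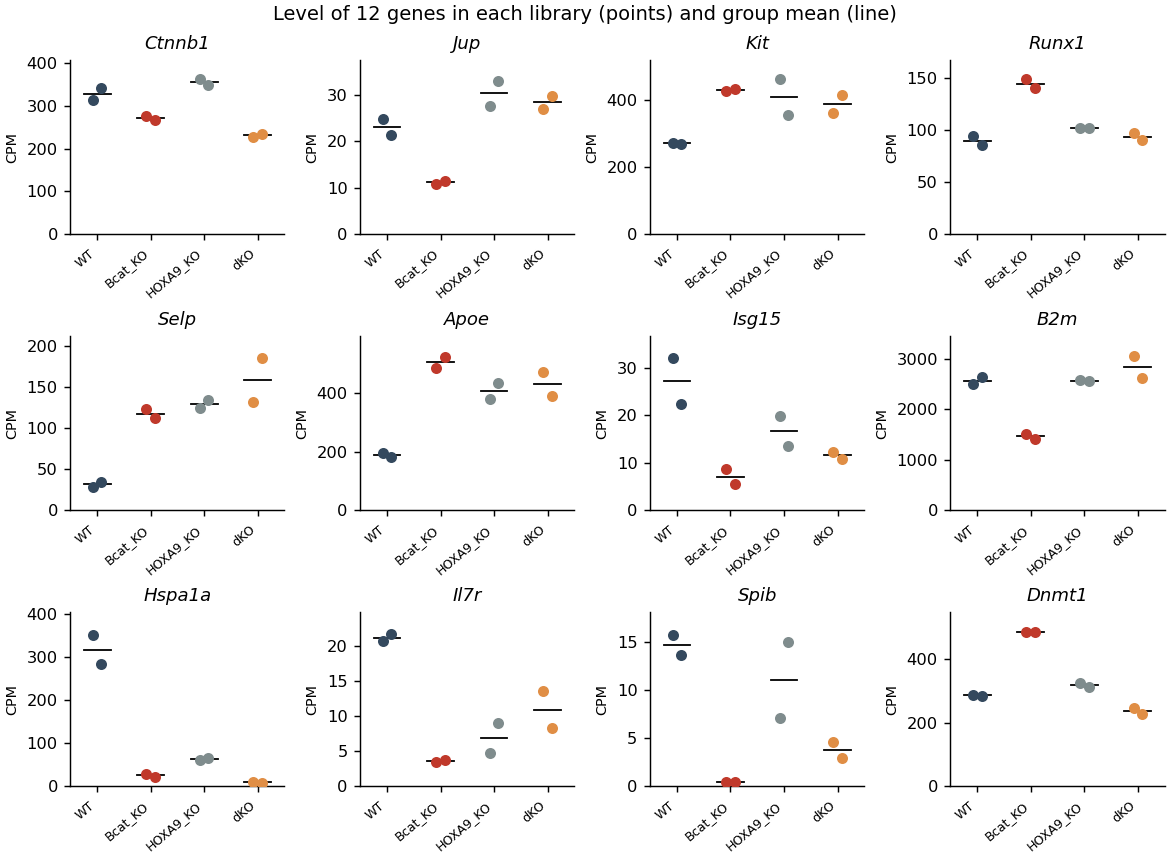
Level in CPM (y axes, from 0) of 12 genes in each library (points) of WT, Bcat_KO, HOXA9_KO and dKO, with the mean of the 2 libraries as a line. B2m and Isg15 are lowest in Bcat_KO and Dnmt1 highest, whereas for Selp and Apoe the WT pair is the low one and for Hspa1a the high one.

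Lymphoid-primed and B lineage genes were lower in Bcat_KO. The share called lower over all autosomal genes was 9.65%, and the share called higher was 7.54%. Of 29 lymphoid-primed genes 13 were called lower and 2 higher (median -0.71), 10 of the lower calls holding without each library. Of 30 B lineage markers 17 were called lower and 0 higher (median -1.93). Leaving out 1 library left 11 (without WT S1), 7 (Bcat_KO S3 or Bcat_KO S4) or 5 (WT S2) of those lower, and 2 held in every case. In bulk libraries fewer cells of a type and less RNA per cell cannot be told apart. Il7r, the interleukin 7 receptor of lymphoid progenitors, was at 3.49 and 3.77 CPM against 20.7 and 21.7 (log2 change -2.54, SE 0.28, adjusted p = 2.83e-05). Ets1, a lymphoid transcription factor, was at 17.3 and 16.2 against 52.6 and 60.2 (log2 change -1.75, SE 0.15, adjusted p = 1.55e-06). For both genes Bcat_KO was below all 10 other libraries. Rag1, which cuts antigen receptor genes, was at 1.02 and 2.88 against 36.5 and 39.1 CPM (log2 change -4.26, SE 0.60, adjusted p = 0.00352). Flt3, the receptor of lymphoid-primed progenitors, changed by -0.89 (adjusted p = 0.0278, lost without Bcat_KO S3, Bcat_KO S4 or WT S1). Spib, a B and dendritic cell factor, was at 0.445 and 0.471 against 15.7 and 13.6 CPM (log2 change -4.98, SE 0.37, adjusted p = 4.15e-06). Pax5, which fixes B identity, was at 4.32 and 3.58 against 64.1 and 86.1 (log2 change -4.25, adjusted p = 0.00535, lost without Bcat_KO S4). Cd79b, of the B cell receptor, was at 32.0 and 31.5 against 89.3 and 101 (log2 change -1.58, adjusted p = 0.000882). Gimap4 (log2 change -2.04) and the kinase Lck (-1.31), both of lymphoid cells, held without each library.

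The B lineage markers did not all fall. Ighm, the µ heavy chain, was at 6831 and 9824 CPM in Bcat_KO and at 2552 and 5845 in WT (adjusted p = 0.261), and Jchain was at 666 and 983 against 460 and 962 (adjusted p = 0.81). Both were chosen for naming after their values were seen. These genes carry the summed level of the list, which was 8172 and 11938 CPM in Bcat_KO and 4897 and 9133 in WT, so the sum and the median of the list have opposite signs. Across the other 8 libraries Ighm ranged from 3335 to 24282 CPM, within-group spread included. The part of the cell mix in the lower lymphoid genes was not tested.

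Some markers of other lineages that the sort should leave out were lower too, and others were not. The shares over all autosomal genes were 9.65% lower and 7.54% higher. Of 23 monocyte and macrophage markers 2 were lower and 0 higher, near the share of all genes, and of 19 mast cell and basophil markers 3 were higher and 0 lower (median 0.31). T, NK and innate lymphoid markers had 13 of 35 lower and 0 higher (median -1.41), with 6 to 11 lower when 1 library was left out and the fewest without Bcat_KO S4. Dendritic cell markers had 9 of 25 lower and 2 higher (median -1.42), with 4 to 7 lower when 1 was left out and the fewest without Bcat_KO S4 or WT S1. Late neutrophil genes had 9 of 23 lower and 2 higher (median -4.36, or -4.23 with genes at 0 set to their bound). Late neutrophil genes summed to 496 and 469 CPM in Bcat_KO, 2246 and 840 in WT, and 395 to 3313 elsewhere. Of those 9 lower calls, 3 were left without WT S2 and 0 without each of the other 3 libraries, and Mmp9, at 0 in both Bcat_KO libraries and 22.3 and 8.42 CPM in WT, was lost when any 1 was left out. Globin, heme and red cell membrane genes had 14 of 31 lower and 0 higher (median -1.85), with summed levels of 1091 and 1059 against 2531 and 1557 CPM, and 7 lower without Bcat_KO S4. Trim10, of terminal red cells, was at 0 against 5.96 and 3.42 CPM (at least 116-fold lower), and Ermap at 0.953 and 0.660 against 8.0 and 9.44 (log2 change -3.44, adjusted p = 0.000154). Car2, a carbonic anhydrase, was at 383 and 374 against 553 and 593 (log2 change -0.60, adjusted p = 5.92e-05), with 0.76 against WT_PRMT1. Endothelial and stromal markers had 6 of 24 lower and 2 higher, and 4 lower with the background subtracted. At a mean of at least 5 CPM they had 0 lower and 2 higher (median 0.09). At that level the T and NK list had 7 lower (median -0.51) and the red cell list 7 lower (median -0.49). Claudin 5, Cldn5, was at 0 against 3.14 and 1.94 CPM, at least 62.6-fold lower, and the scavenger receptor Cd36 at 1.14 and 0.943 against 9.78 and 8.38 (log2 change -3.12, adjusted p = 3.13e-06). The receptor background was lower in Bcat_KO too, and its part in these falls was not tested. With that background subtracted at an even rate per kb of exon, each of the called genes named in the text kept its call. The rate, 0.0265 CPM per kb on average in WT, lay far below the level of most of these genes. The subtraction could thus hardly change their calls, and it does not cover an uneven background.

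DNA replication genes did not move one way. Of 59, 4 were called higher and 5 lower, with a median of -0.06, a share of calls close to that of all genes. Dnmt1, the maintenance DNA methyltransferase that travels with the fork, was at 485 CPM in both Bcat_KO libraries and at 289 and 285 in WT (log2 change 0.76, SE 0.08, adjusted p = 7.44e-06). It was at most 326 in the other 8 libraries, and it fell by 0.43 in dKO against HOXA9_KO (adjusted p = 0.00764). Rfc1, a clamp loader subunit, was at 160 and 164 against 117 and 114 (log2 change 0.49, adjusted p = 0.00212). Pcna, the clamp, went down, from 680 and 659 CPM to 442 and 437 (log2 change -0.61, SE 0.07, adjusted p = 2.26e-05), with pseudogene copies that make its count uncertain. It was lower in dKO against HOXA9_KO too (log2 change -0.37, adjusted p = 0.00949). Of the 59 genes 11 were lower and 0 higher there (median -0.30), where 1.35% of all autosomal genes were lower. The difference between the comparisons was called for 11 of the 59. Among 39 mitosis genes (median -0.06), 0 were lower in Bcat_KO, beside 9.65% of all autosomal genes. Called higher were 3 of the 39, a share near the 7.54% of all genes. Mki67 (log2 change 1.27, adjusted p = 0.0449) and Cenpf (0.53, adjusted p = 0.0398) were 2 of those, and both calls were lost when any 1 library was left out. The Hoxa9-deficient pair differed here: 22 of the 39 were lower in dKO than in HOXA9_KO, with a median of -0.89, and the difference between the comparisons was called for 17. Cenpf fell there by 1.53 (adjusted p = 0.000379). Of 17 D cyclins, their kinases and inhibitors, 4 were higher and 6 lower, to be set beside 7.54% and 9.65% of all autosomal genes. Cdk6, the kinase that sets how fast stem cells leave quiescence, was at 557 and 508 CPM against 289 and 256 (log2 change 0.97, SE 0.15, adjusted p = 0.00176), above every other library. Its partner Ccnd3 was at 180 and 149 against 321 and 378 (log2 change -1.09, SE 0.12, adjusted p = 3.65e-05).

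Of 40 homologous recombination, Fanconi and checkpoint genes, 4 were higher and 0 lower (median 0.05), a share of higher calls near the 7.54% of all genes. Brca2, which acts in recombination at broken DNA, was at 60.5 and 59.2 against 37.2 and 35.4 CPM (log2 change 0.72, SE 0.12, adjusted p = 0.000728). Of 29 p53 targets 2 were higher and 6 lower (median -0.16), where 9.65% of all autosomal genes were lower. Mdm2, the ligase that holds p53 low, rose by 0.72 (adjusted p = 0.000601), whereas Gadd45a, a stress gene, was at 14.3 and 16.1 against 35.5 and 28 (log2 change -1.06, adjusted p = 0.00115).

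Of 55 ribosome biogenesis genes, 17 were called higher by small steps, 0 lower and 38 not called (median 0.24), where 7.54% of all autosomal genes were called higher. After the length correction 14 were higher. Without Bcat_KO S3 11 were higher, without Bcat_KO S4 or WT S2 7 and without WT S1 5, with 0 lower each time. Rrp1b, a nucleolar factor, was at 80.7 and 78.5 CPM against 39.1 and 40.8 (log2 change 0.99, SE 0.15, adjusted p = 0.000254), above all 10 other libraries. Nolc1, a nucleolar scaffold, was at 216 and 218 against 151 in both WT libraries (log2 change 0.52, adjusted p = 0.00133), and the helicase Ddx21 at 406 and 387 against 296 and 274 (0.48, adjusted p = 0.00297). In dKO against HOXA9_KO 0 were higher and 1 lower. Polycomb, trithorax, MLL complex and DNA methylation genes had 20 of 48 higher and 2 lower (median 0.38), and 10 to 13 higher when any 1 library was left out. Dot1l, the H3K79 methyltransferase, was at 111 and 100 against 50.9 and 43.5 CPM (log2 change 1.16, SE 0.13, adjusted p = 1.47e-05), and above 59.4, the highest of the other 8. Tet2, which oxidises methylcytosine, was at 19.9 and 24.0 against 5.23 and 2.68 (log2 change 2.48, SE 0.40, adjusted p = 0.00135). Setd2, the H3K36 methyltransferase, rose by 0.65 (adjusted p = 0.000227), and Bmi1, of Polycomb and with a pseudogene copy, changed by -0.47 (adjusted p = 0.00674, lost without Bcat_KO S3 or WT S2). Among 44 remodellers 14 were higher and 2 lower, and 5 were higher without WT S2. The remodellers had a median exon length of 8.81 kb and a median log2 change of 0.14. After the length correction 10 were higher and 1 lower, with a median of 0.06. Arid1b, of SWI/SNF, was at 236 and 214 against 128 and 116 (log2 change 0.89, adjusted p = 0.00019), and Smarcc1 at 209 and 228 against 139 and 141 (0.64, adjusted p = 0.000133).

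Calls were mostly lower in 3 lists of housekeeping genes, to be set beside 9.65% lower and 7.54% higher over all autosomal genes. Of 75 nuclear-encoded oxidative phosphorylation subunits 35 were lower and 1 higher (median -0.31), of 78 cytosolic ribosomal protein genes 31 lower and 2 higher (median -0.16), and of 41 proteasome genes 20 lower and 1 higher (median -0.25). Lower calls when any 1 library was left out numbered 24 to 29, 13 to 22 and 3 to 12 in these 3 lists, with the fewest without WT S2, WT S1 and WT S2. Cox5a, of complex IV, was at 57.6 and 71.0 against 124 and 112 CPM (log2 change -0.88, adjusted p = 0.000154). Rpl30, of the large ribosomal subunit, was at 412 and 423 against 623 and 584 (log2 change -0.53, SE 0.07, adjusted p = 8.99e-05). Uqcrb, of complex III, gave -0.86, Atp5o -0.85, Rps3a1 -0.57 and the proteasome subunit Psma4 -0.52, and these 4 have pseudogene copies. The median summed exon length was 1.76 kb in the oxidative phosphorylation list, 1.81 kb in the ribosomal protein list, 7.41 kb in the chromatin list and 3.90 kb over all autosomal genes tested. Other lists of short genes differed in how many lower calls they had. Late neutrophil genes, at 1.84 kb, had 9 of 23 lower, and B lineage markers, at 2.34 kb, had 17 of 30 lower. Primary granule genes, at 1.73 kb, had 2 of 15 higher and 1 lower (median 0.23). Mitochondrial ribosomal proteins, at 2.53 kb, had 7 of 77 lower and 0 higher. Their median was nonetheless -0.15, near the -0.16 of the cytosolic list, and -0.06 with a correction for length. In 44 of the 77 both Bcat_KO libraries lay below both WT libraries, beside 32.3% of all autosomal genes.

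Over 9470 protein-coding genes of at least 5 CPM, in 8 equal classes of exon length, the shortest (0.342 to 2.138 kb) had 2.87% called higher and 21.8% called lower, with a median log2 change of -0.19. The longest (9.5 to 123.179 kb) had 22.9% higher and 4.39% lower, with a median of 0.18. Over all genes of the 8 classes the change correlated with the logarithm of length at r = 0.24 (rho = 0.29), a description over genes that share their 4 libraries. In dKO against HOXA9_KO r was -0.04. With a trend on length in the fit, the shortest class had 7.60% higher and 11.1% lower, and the longest 12.2% and 11.9%. The oxidative phosphorylation list then had 26 lower calls, the ribosomal protein list had 17 lower and 7 higher, the proteasome list 11 lower and the chromatin list 16 higher and 3 lower. In the same order, the medians were -0.20, -0.06, -0.13 and 0.18 with the trend and -0.31, -0.16, -0.25 and 0.38 without it. Whether length goes with library preparation or with the cells was not tested.

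**Figure D4:**
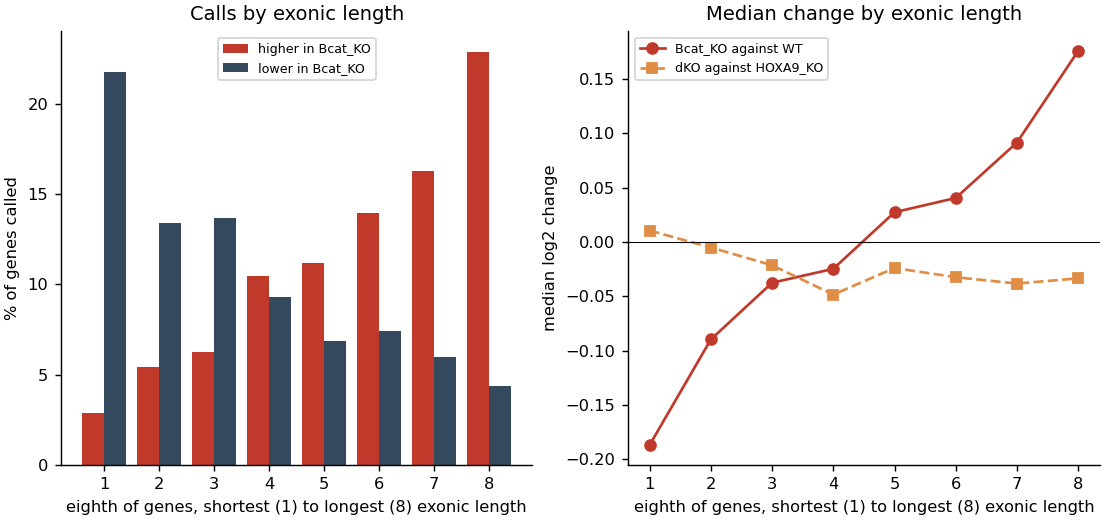
Share of protein-coding autosomal genes called higher or lower in Bcat_KO (left, in percent) and median log2 change (right), by class of summed exon length from the shortest (1) to the longest (8). In Bcat_KO against WT the median goes from -0.19 to 0.18, and in dKO against HOXA9_KO it stays between 0.01 and -0.05.

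The rule on size and p named further genes, some of which lay apart from all the other libraries in Bcat_KO. Rtn2, a reticulon of the endoplasmic reticulum, was at 12.9 and 10.9 CPM against 1.41 and 1.43, and at most 2.43 elsewhere (log2 change 3.06, SE 0.44, adjusted p = 0.000225). Leng8 was at 59.9 and 52.7 against 15.1 and 12.2, and at most 21.5 elsewhere (log2 change 2.04, SE 0.19, adjusted p = 2.74e-06). Hk3, the hexokinase of myeloid cells, was at 185 and 188 against 79.6 and 78.2, and at most 101 elsewhere (log2 change 1.24, SE 0.11, adjusted p = 1.55e-06). It was 1 of 4 glycolysis genes called higher of 25, with none lower, where 7.54% of all autosomal genes were called higher. The splicing regulator Khsrp was at 217 and 213 against 113 and 123 (log2 change 0.87, adjusted p = 4.06e-06), and the proprotein convertase Furin at 99.4 and 92.8 against 44.5 and 39.1 (1.20, adjusted p = 1.55e-06). Gatm, the first enzyme of creatine synthesis, was at 75.6 and 72.4 against 28.8 and 34.1 (log2 change 1.23, adjusted p = 6.48e-06). On the lower side, Shisa5 was at 178 and 190 against 319 and 334 (log2 change -0.83, adjusted p = 1.91e-06), and the antiproliferative gene Btg1 at 254 and 257 against 526 and 443 (-0.92, adjusted p = 6.73e-06). Both were below all 10 other libraries. Cplx2, a regulator of exocytosis, was at 16.5 and 14.1 against 126 and 146 (log2 change -3.15, SE 0.26, adjusted p = 0.000176), and also fell in dKO against HOXA9_KO, by 1.40. It was as low as 19.7 CPM in the other libraries. Psme2b and Rps27rt, at 2.94 and 2.77, are near-copies of Psme2 and Rps27, so how reads were assigned to them is uncertain.

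The pair dKO and HOXA9_KO gives a second comparison for β-catenin, on a Hoxa9-deficient background, that shares no library with Bcat_KO against WT. It called 71 autosomal genes higher (0.43%) and 222 lower (1.35%), together 293, which became 163 without HOXA9_KO S5, 183 without dKO S7, 600 without dKO S6 and 612 with DESeq2. Of the 2837 genes called in Bcat_KO against WT, 98 were called there too, 3.45% of the first set and 33.4% of the second. Over all autosomal genes 17.2% were called in the first comparison, and 0.43% higher and 1.35% lower in the second. Of the 98, 71 went in the same direction (52 lower, 19 higher) and 27 in the opposite one. By sign alone, 51.6% of the Bcat_KO calls went the same way in dKO against HOXA9_KO, beside 50.1% of all autosomal genes. The difference between the comparisons was called for 1398 genes (8.47%), among them 1132 of the Bcat_KO calls. Across 9804 genes of at least 5 CPM the log2 changes of both correlated at r = 0.02 (rho = 0.08), as a description over genes.

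Genes called lower in both comparisons included markers of lymphoid cells, cytokines, heat shock chaperones and the clamp gene Pcna. Pcna gave -0.61 and -0.37, Hspa8 -0.52 and -0.38 and Hspa1b -3.32 and -3.16. Akap12, a kinase anchor, was at 1.97 and 3.02 CPM in Bcat_KO and 22.9 and 26.7 in WT (log2 change -3.30, adjusted p = 3.13e-06), and at 1.86 and 1.21 in dKO and 7.86 and 13.7 in HOXA9_KO (-2.81, adjusted p = 0.000379). Arpp21, high in lymphoid precursors, gave -2.42 and -2.51, with 4.38 and 5.33 against 24.4 and 27.5 CPM in the first pair. Rag1 gave -4.26 and -3.43, and Spib -4.98 and -1.56. Bcat1, an enzyme of branched-chain amino acid breakdown that is unrelated to β-catenin in spite of its symbol, gave -2.67 and -4.43. E2f2 (-1.41 and -0.76), a cell cycle factor, Dck (-0.93 and -0.66), a nucleotide salvage kinase, and Snx2 (-0.94 and -0.49), a sorting nexin with a pseudogene copy, were lower in both too. So were the cytokines Tnf (-1.16 and -1.09) and Ccl4 (-2.20 and -2.11), the latter at 37.6 and 41.6 CPM against 187 and 177. Among the genes higher in both were the cold-inducible Cirbp (0.57 and 0.65), the unfolded protein sensor Ern1 (0.78 and 0.69), the urokinase receptor Plaur (1.17 and 0.74) and the amino acid transporter chain Slc3a2 (0.48 and 0.51). In the opposite directions went Cit, a kinase of cell division, at 1.14 and -0.98, and Pdgfrb, a growth factor receptor, at 0.81 and -1.47. Arpp21, Bcat1, E2f2, Dck, Tnf, Ccl4, Cirbp, Plaur and Cit were chosen for naming after their values were seen. Each of these values passed the test in its own comparison.

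**Figure D5:**
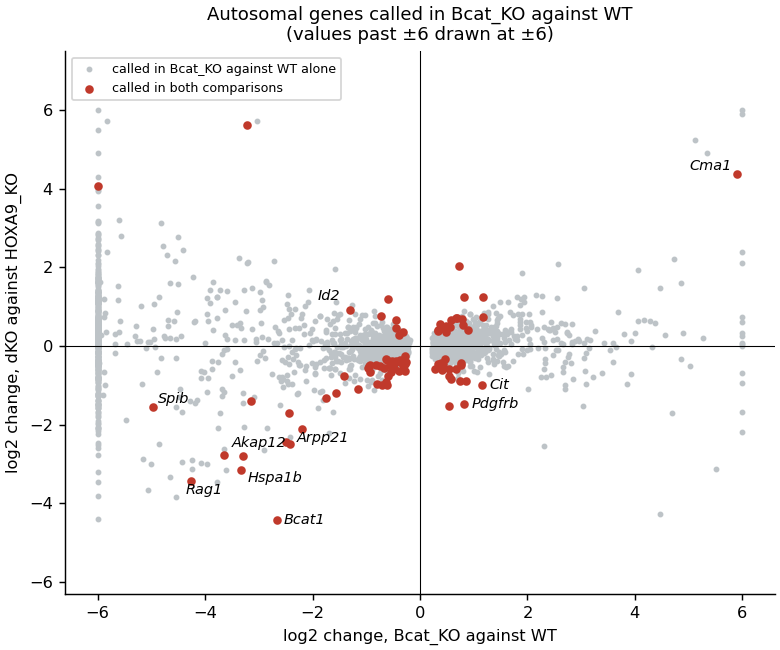
Log2 change in Bcat_KO against WT (x axis) and in dKO against HOXA9_KO (y axis) of the 2837 autosomal genes called in the first, with the 98 called in both in red. The grey points spread along the x axis around 0 on the y axis, and 71 of the red ones lie in the lower left or upper right.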

How the data were processed

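RNA was taken with the RNeasy Plus Micro kit and made into stranded libraries with the NEB Ultra II Directional kit, per the labels' protocols. The authors deposited 1 table of raw read counts per gene for the 12 LSK libraries. The submitters' processing notes name Trim Galore 0.6.6, STAR 2.7.6a, featureCounts (version not given in the sources used here) and the GRCm38 build. Of the 55471 genes in the table, 54900 matched GENCODE M21 by identifier and position. Even counts made 67.1% to 75.9% of all counts above 0, which fits a table in which the 2 mates of a pair each count, so counting error is larger than the counts alone give. Where columns give a group and a tag but no replicate number, libraries are named by both, such as Bcat_KO S3.

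Genes were filtered with filterByExpr (minimum count 10) and tested with edgeR 4.0.16, quasi-likelihood with robust estimation and TMM scaling, in R 4.3.3. One mean per group was fitted over all 12 libraries (6 residual degrees of freedom), and p-values were Benjamini-Hochberg adjusted over 17063 genes. A call is an adjusted p under 0.05. SE was taken from the F statistic, as the log2 change over its root. Replicates differed beyond sampling noise in each group (chi-square per degree of freedom 9.57 or more), and none was merged. The test was checked on simulated counts. CPM values use the TMM-scaled library size, and floors are 3 counts over a group and cover counting error only. A list is described by its counts and median, without a set test. Its counts are to be set beside the 7.54% of all autosomal genes called higher and the 9.65% called lower.

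The genes and lists were chosen with earlier results of these data known. Ctnnb1, Jup, Hoxa9 and Prmt1 were always named. Further names were protein-coding genes called, with groups apart, and called without each library: the 12 largest changes per direction at a mean of 5 CPM or more, and the 8 smallest p at 50 CPM or more. From each list up to 4 called members per direction were added, by p. Other names are marked in the text, and some items are not reported here. Copies were sought among transcripts at 95% identity or more, and promoters came from RefSeq. Alternatives changed the scaling, filter, tool, control, libraries, threshold, background, length and GC.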

Additional observations from a re-analysis of the deposited data

Results flagged for a closer look

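The change of 93 named genes in dKO against HOXA9_KO differed from their change in Bcat_KO against WT by a test of the difference itself (adjusted p under 0.05 over all genes tested), and the values given are that difference in log2. A positive value means that the change in Bcat_KO against WT was the lower of both, and a negative value that it was the higher. These genes were mostly named for their change in Bcat_KO against WT, and of all autosomal genes tested 8.47% had one. Positive differences were found for Gm21738 8.79, Gm10800 8.67, Ermap 4.56, Cd36 3.55, Spib 3.42, Il7r 3.20, Snrpf 3.15, Hspb1 2.79, Gimap4 2.37, Id2 2.23, Cplx2 1.75, Ets1 1.46 and Dnajb4 1.45. Smaller positive ones were those of Txnip 1.44, Isg15 1.42, Cd79b 1.36, Rsad2 1.36, Gadd45a 1.34, Rtp4 1.15, Cxcr4 1.12, Gem 1.12, Irgm1 1.06, Shisa5 1.03, Btg1 1.03, Gbp2 1.01 and B2m 0.95. Below these came Uqcrb 0.95, Jup 0.94, Atp5o 0.79, Dusp6 0.78, Ccnd3 0.77, Car2 0.77, Ly6e 0.76, Ifi27 0.74, Rps3a1 0.74, Lck 0.73, Rpl30 0.71, Ly6a 0.70 and Cox5a 0.70. The smallest were Btg2 0.69, H2-Q6 0.61, Bmi1 0.55, Psma4 0.47 and Snx2 0.45. For Nkd2 6.69, Cdh1 5.34, Trim10 11.01, Mmp9 14.13, Cldn5 9.17, Gm10717 10.77 and Igkv5-39 13.53, which had few or no counts in Bcat_KO, the fitted size depends on the prior count and is not an estimate of the fold. Negative differences were found for Gm10282 -4.65, Gm10123 -3.12, Rtn2 -2.99, Psme2b -2.77, Rps27rt -2.49, Tet2 -2.34, Pdgfrb -2.29, Cit -2.13, Cenpf -2.06, Leng8 -1.99, Jag2 -1.76, Selp -1.60, Cdk6 -1.48 and Dot1l -1.35. Smaller negative ones were those of Apoe -1.33, Rrp1b -1.21, Dnmt1 -1.19, Csf3r -1.14, Sox4 -1.12, Khsrp -1.08, Gatm -1.04, Brca2 -1.01, Smarcc1 -0.99, Csnk1e -0.91, Myct1 -0.89, Arid1b -0.88, Gsk3b -0.84 and Hk3 -0.82. They were followed by Runx1 -0.81, Mdm2 -0.81, Furin -0.79, Tnks -0.76, Rfc1 -0.76, Kit -0.74, Setd2 -0.73, Cd44 -0.65, Meis1 -0.64, Itga6 -0.60, Ddx21 -0.56, Nolc1 -0.53 and Hspa4 -0.48. Ctnnb1 had a difference of -0.35. It fell in both comparisons and more in dKO. Dnmt1, Pdgfrb, Cit and Sox4 rose in the first comparison and fell in the second, and Id2 did the reverse. What sets the comparisons apart beyond Hoxa9 was not tested, and the receptor background and the levels of Xist and Ddx3y differ far more within the first than within the second.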

How the results depend on the processing

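No paired analysis was possible because the columns carry a library tag and no replicate number that ties one group to another. The number of genes called in Bcat_KO against WT, 2837, became 4666 with WT_PRMT1 as the control and 461 with a threshold of 1.5-fold, and ranged from 1269 to 2037 when 1 of the 4 libraries was left out. The 1245 higher calls became 2051 and 135 under the first 2 of these, and 492 to 808 with 1 library left out. The 1592 lower calls became 2615 and 326, 1040 at a mean of at least 5 CPM, 1019 in a fit of the 8 libraries of the experiment and 1005 with limma-voom, and 777 to 1229 with 1 library left out. When a group is left with 1 library, that library is assumed to vary like the other groups. The 293 calls of dKO against HOXA9_KO became 611 with no filter and 612 with DESeq2, and 163 to 600 with 1 library left out. The 1398 called differences became 722 with limma-voom and ranged from 651 to 1347. With WT_PRMT1 as the control, 6 of the 138 named genes changed sign: Procr to 0.64, Hlf to 0.93, Gbp2 to 0.0495, H2-Q6 to 0.30, Gem to 0.58 and Car2 to 0.76. WT_PRMT1 belongs to another experiment, and the cause was not tested. With DESeq2, RLE size factors, a GC trend or the background subtracted, the named genes kept their direction and their side of the threshold. With a length trend 4 lost their call, with 1 library left out 11 to 18, and with the 1.5-fold threshold 59. Robust estimation was compared with its absence after the data were seen. The receptor background of the WT libraries was 0.0303 and 0.0227 CPM per kb of exon, which limits what lower values in Bcat_KO can show for genes near that level.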

Other observations

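Several gene models outside the lists, chosen after their values were seen, separated the Bcat_KO pair from the other 10 libraries by wide margins. Gm10800, a predicted coding gene, was at 1.94 and 9.52 CPM in Bcat_KO, 1689 and 1848 in WT and 516 to 1636 elsewhere. Gm21738 was at 0.0318 and 0.683 CPM, against 153 and 162 in WT and 48.5 to 138 elsewhere, and Gm10717 at 0 and 0.0471, against 33.7 and 41.1 in WT and 8.57 to 25.1 elsewhere. The last 2 share long stretches with other predicted genes. Igkv5-39, an immunoglobulin κ variable segment, had no count in Bcat_KO, 70.7 and 141 CPM in WT and 171 to 905 elsewhere, at least 2611-fold lower in Bcat_KO than in WT. Snrpf, a core spliceosome protein whose locus overlaps Ccdc38, was at 1.72 and 1.11 CPM against 11.3 and 12.1 in WT and 9.83 to 13.9 elsewhere (log2 change -3.06, adjusted p = 1.81e-06).

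A pair of other models were higher. Gm10282, a near-copy of Hmgn2 at 99.3% identity, was at 60.2 and 76.9 CPM in Bcat_KO, 4.92 and 4.07 in WT and 2.13 to 5.43 elsewhere. Gm10123, a processed pseudogene with 99.0% identity to Ppia, was at 122 and 111 CPM, against 15.7 and 20.0 in WT and 12.1 to 25.6 elsewhere. Of 592 processed pseudogenes tested, 50 were called higher (8.45%, near the 7.54% of all autosomal genes) and 18 lower (3.04%, beside 9.65%), with a median log2 change of 0.41, where all autosomal genes had -0.04. Of 32 snoRNA genes, 5 were called higher and 1 lower, with a median of 1.42. Counts of such models depend on how reads that fit several places were assigned, and whether that differed for the Bcat_KO libraries was not tested.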
